A study of Oryza sativa with 24 samples.

Results

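The 80 rice loci that lie beside the 4 genes edited in a clonal-seed line were described in flag leaves, out of 55801 loci in the deposited expression table. A locus was included when it was on the chromosome of an edited gene and its locus number differed from that of the edited gene by at most 100, whatever its expression. This gave 20 loci around REC8 (LOC_Os05g50410, chromosome 5), 20 around PAIR1 (LOC_Os03g01590, chromosome 3), 23 around OSD1 (LOC_Os02g37850, chromosome 2) and 17 around MTL (LOC_Os03g27610, chromosome 3), the edited genes included. RNA-seq was made from flag leaves at heading of 6 groups with 2 libraries each. They were Fix T0, the founding generation of the edited plants, its diploid offspring generations Fix T1, Fix T2, Fix T3 and Fix T4, and the unedited hybrid CY84. All groups share the Chunyou84 background, a hybrid of the japonica male-sterile line Chunjiang 16 A and the indica-japonica intermediate line C84, and all 5 Fix groups carry the edits. Fix T0 and CY84 had been kept by their roots and Fix T1 to Fix T4 were raised from seed. The way of raising the plants therefore cannot be told apart from the step between the founding generation and its offspring. The mean of the Fix groups against CY84 sets mostly seed-grown plants against root-kept ones. In it the edits cannot be told apart from the way of raising either. The labels do not say how many founding plants the Fix groups descend from or that the 2 libraries of a group are separate plants, so a p-value measures only the spread between these samples.

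In an ordinary meiosis chromosomes recombine, sister chromatids are held together through the first division, and a second division follows. PAIR1 is needed for meiotic recombination, REC8 is the cohesin subunit that holds sister chromatids together in meiosis, and OSD1 lets the second division begin. When all of these are lost, meiosis becomes a mitosis-like division that gives unreduced, unrecombined gametes. MTL is a phospholipase of pollen whose loss induces haploid seed, and joined to the other edits it lets a hybrid set clonal seed. Meiosis and pollen belong to the flower, and the flag leaf sampled here is a photosynthetic organ.

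Levels are given as FPKM, a count of sequenced fragments divided by gene length and by the library's mapped fragments, as deposited by the authors. Between 22097 and 23731 loci were above 0 in a library and summed FPKM ranged from 680768 to 767790. The absolute depth is unknown, but the spacing of low values places the libraries between 0.674 and 1 of the depth of CY84 replicate 1. The leaf identity of the samples was clear from the 6 leaf genes examined, among them those of Rubisco small subunit and chlorophyll-binding proteins: their summed level was 30180 to 69540 FPKM in the Fix libraries and 40750 to 42740 FPKM in CY84. Of 6 anther and tapetum genes, 5 stayed under 1 FPKM in every library, and C6 and EAT1 among them were at 0 in all. The remaining gene, MS2-like DPW, had 0.70 to 2.82 FPKM. The 6 summed to 1.04 to 3.65 FPKM in Fix and 1.59 to 2.04 FPKM in CY84.

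The 4 edited genes were at or close to 0. REC8 was listed at 0 in Fix T0 and Fix T1, at 0.0575 and 0 FPKM in Fix T2, at 0 and 0.0370 FPKM in Fix T3, at 0.0609 and 0 FPKM in Fix T4, and at 0.0488 and 0.103 FPKM in CY84. Multiplied by the relative depth of their libraries, its 5 values above 0 were 1.00 to 2.94 times the smallest of them, so they stand for very few fragments. PAIR1 was above 0 in Fix T0 alone, at 0.0856 and 0.0697 FPKM, and after multiplication by relative depth the 2 values were equal. OSD1 was above 0 in 1 library, Fix T0 replicate 2, at 0.521 FPKM. None of these 3 genes reached the minimum for testing, 1 FPKM in at least 2 libraries.

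MTL was the only edited gene above 0 in all 12 libraries. It stood at 0.936 and 0.168 FPKM in Fix T0, at 0.639 and 0.746 FPKM in Fix T1, at 0.349 and 0.745 FPKM in Fix T2, at 0.193 and 0.664 FPKM in Fix T3, at 1.25 and 0.170 FPKM in Fix T4, and at 0.500 and 0.105 FPKM in CY84. Its libraries overlapped between every Fix generation except Fix T1 and CY84, and the replicates of Fix T0 and of Fix T4 differed by more than the means of any pair of groups did. It too was below the minimum for testing. Multiplied by the relative depth of their libraries, its values were 1.00 to 13.3 times the smallest of them, that of CY84 replicate 2. The lowest MTL values thus stand for few fragments as well. These levels in leaf check neither the edits nor the labels.

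**Figure D1:**
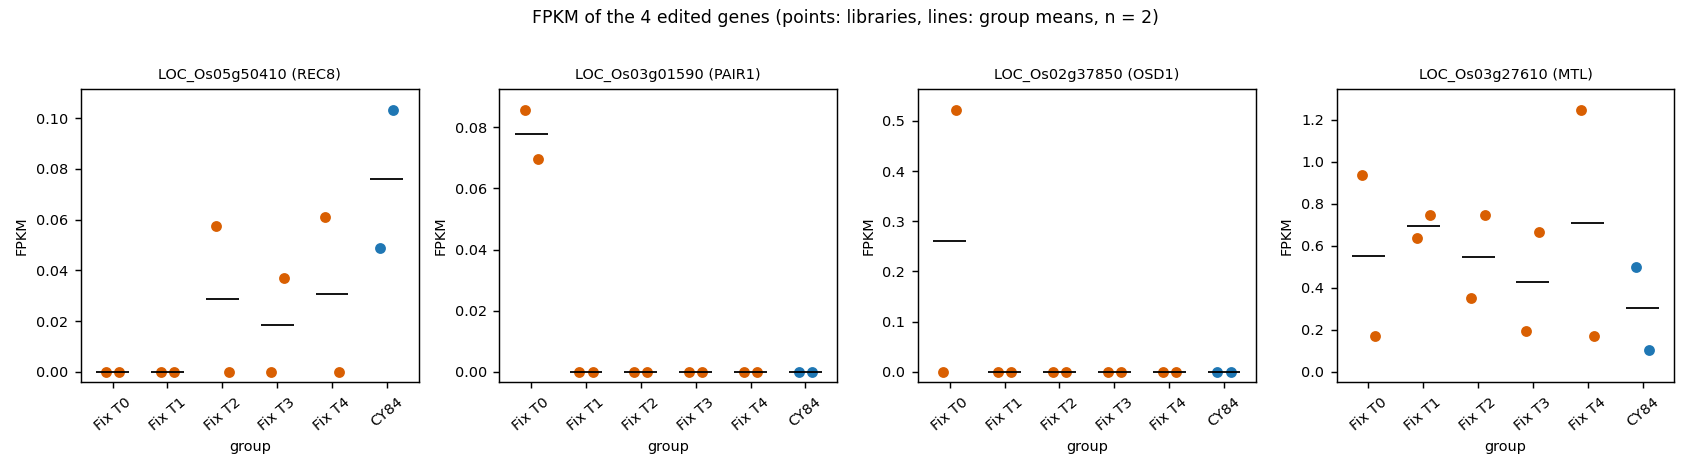
FPKM (y axis, a separate scale for each gene) of the 4 edited genes in the 5 Fix groups and CY84 (x axis). Points are libraries and lines are group means of 2 libraries. REC8, PAIR1 and OSD1 are at 0 in most libraries, and MTL alone is above 0 in all of them.

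The windows differed in how much of them was expressed in leaf. Over the 80 loci, 27 (33.8%) were at 0 in all 12 libraries, compared with 48.1% of all loci in the table, and 36 (45.0%) reached the minimum for testing, compared with 33.8% of all loci. The REC8 window had 1 locus at 0 throughout and 15 tested loci out of 20. In the OSD1 window 6 of 23 loci were at 0 throughout and 13 were tested, and in the PAIR1 window 7 of 20 were at 0 and 7 were tested. The MTL window was nearly silent, with 13 of its 17 loci at 0 in every library and 1 tested. The remaining 17 detected loci were below the minimum, and the highest of these was LOC_Os05g50350 at 2.72 FPKM in CY84 replicate 1. The 36 tested loci had a median level of 3.74 FPKM, against 6.19 FPKM for all 18871 tested loci.

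A single locus held most of the signal of the REC8, OSD1 and MTL windows. LOC_Os05g50340 made up 72.8% to 85.0% of the summed FPKM of the REC8 window in the 6 groups, LOC_Os02g37862 57.6% to 75.3% of that of the OSD1 window, and LOC_Os03g27590 88.7% to 95.5% of that of the MTL window. The share of the highest locus in the PAIR1 window, LOC_Os03g01570, was 32.4% to 44.6%. The table gives no names for the neighbouring loci, and none is given to an identifier here. Only PAIR1 of the 4 edited genes was found by name in the RefSeq annotation of the assembly ASM3414082v1, also on chromosome 3. The named genes there within 10 genes of it are the beta-tubulin gene TUB2, 6 genes before it, the beta-expansin gene EXPB10, 4 genes after it, and the silicon transporter gene Lsi2, 10 genes after it.

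**Figure D2:**
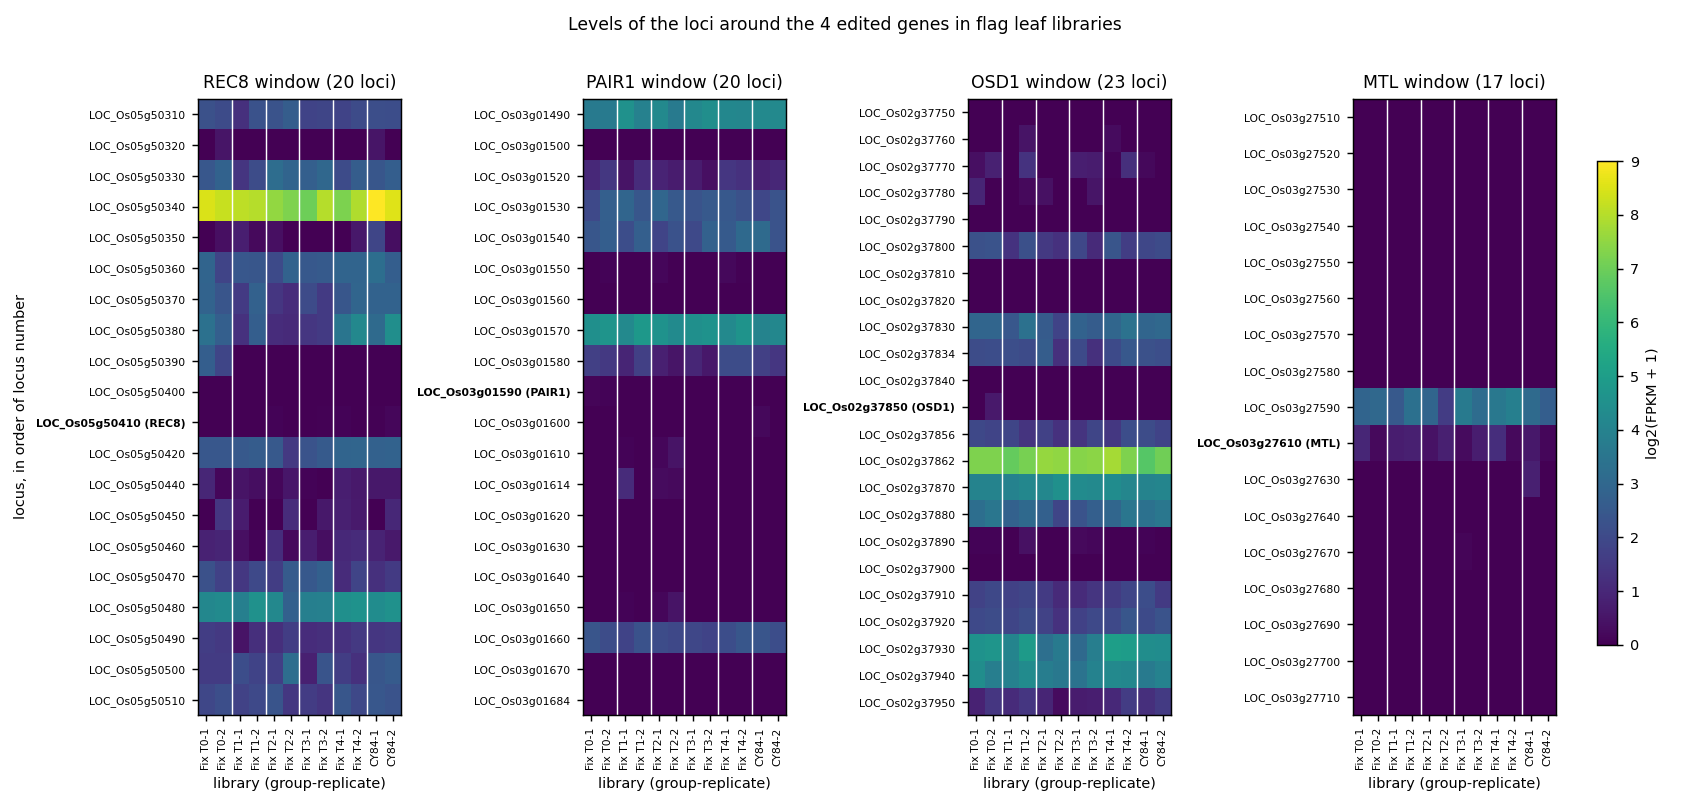
Level of each of the 80 loci as log2(FPKM + 1) (colour), with loci in order of locus number down each panel and the 12 libraries across, Fix T0 to Fix T4 and then CY84. The edited gene is in bold in each panel. LOC_Os05g50390, 20 locus numbers before REC8, is coloured in the 2 Fix T0 libraries alone, and 13 of the 17 loci of the MTL window are at 0 in all libraries.

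In the REC8 window, LOC_Os05g50390 was detected in Fix T0 and in no other group. It stands 20 locus numbers before REC8, with LOC_Os05g50400, at 0 in all 12 libraries, between them. The 2 Fix T0 libraries gave 5.45 and 2.68 FPKM for LOC_Os05g50390, and a level of 0 was listed for all 8 libraries of Fix T1 to Fix T4 and for both of CY84. The 2 Fix T0 libraries thus stood apart from the other 10, and no fold is given because those are at 0. In such bulk samples, fewer cells with a transcript and less of it per cell cannot be told apart. It was 1 of 3 loci in the whole table with at least 1 FPKM in both Fix T0 libraries and 0 in the other 10. That pattern was taken from the values of this locus, and the like was not counted for the other groups.

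LOC_Os05g50390 passed the test in Fix T0 against CY84 (limma adjusted p = 0.00606), in Fix T1 to Fix T4 against Fix T0 (limma adjusted p = 7.5e-04) and in Fix T4 against Fix T0 (limma adjusted p = 0.0033). Its limma adjusted p was 0.00466 for any difference among the 6 groups, and it did not pass for the mean of the Fix groups against CY84 (limma adjusted p = 0.400). These comparisons share the same 2 Fix T0 libraries, and a locus at 0 elsewhere could enter the test only through them. A call of this locus that is kept under other settings is therefore no sign of stability. The fitted difference of 2.28 (SE 0.29) in log2(FPKM + 1) between Fix T0 and CY84 depends on the pseudocount, and the 10 libraries at 0 add no spread of their own. The Fix T0 against CY84 call was lost with a pseudocount of 0.1 FPKM (limma adjusted p = 0.223), with the compared groups alone (0.117), without CY84 replicate 1 (0.0780), without CY84 replicate 2 (0.111) and without Fix T0 replicate 1 (0.0696). The call of Fix T1 to Fix T4 against Fix T0 held in all 19 alternatives, with adjusted p-values of 4.42e-04 to 0.0382. With the pseudocount of 0.1 FPKM the Fix T4 against Fix T0 call and the F test call were lost (limma adjusted p = 0.0649 and 0.0763), and the F test call was also lost without Fix T0 replicate 1 (0.0544).

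LOC_Os05g50380, the next locus outward, differed among the 6 groups (limma F test, adjusted p = 0.0307). It stood at 9.34 and 5.61 FPKM in Fix T0, at 1.46 and 5.40 FPKM in Fix T1, at 1.21 and 1.1 FPKM in Fix T2, at 1.68 and 1.91 FPKM in Fix T3, at 10.4 and 17.4 FPKM in Fix T4, and at 7.57 and 20.6 FPKM in CY84. Fix T2 and Fix T3 were low in both libraries, Fix T1 in one, and Fix T4 stood within the range of CY84. The mean over the Fix groups was 5.56 ± 5.40 FPKM (SD, n = 10) and that of CY84 14.1 ± 9.23 FPKM (SD, n = 2), a log2(FPKM + 1) difference of -1.47 (SE 0.39) that did not pass (limma adjusted p = 0.132). In each of the 9 of 18 alternatives that lost the F test call, fewer genes passed over the whole table as well. When low values were not filtered, 0.612% of the genes then tested passed, beside 1.91% with the filter. The call was lost there with the highest value of the 18 (limma F test, adjusted p = 0.129). It was lost without CY84 replicate 2 (limma adjusted p = 0.0732), either Fix T0 replicate (0.0696 and 0.0622), Fix T2 replicate 2 (0.0687), either Fix T3 replicate (0.0687 and 0.0649) or either Fix T4 replicate (0.0713 and 0.121).

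The low values of LOC_Os05g50380 fell in libraries that also stood apart over all genes. The 5 libraries with a median-of-ratios size factor under 1 (0.727 to 0.914) were Fix T1 replicate 1 and both libraries of Fix T2 and Fix T3, and the other 7 had 1.04 to 1.29. LOC_Os05g50380 had 1.1 to 1.91 FPKM in those 5 libraries and 5.40 to 20.6 FPKM in the other 7. After rescaling by these factors its F test still passed (limma adjusted p = 0.0400). The same split, all 5 libraries below all 7, was seen at 7 of the 36 tested loci (19.4%), near the background of 16.9% over all tested loci. The other 6 loci were LOC_Os05g50370 in the REC8 window, LOC_Os03g01580 next to PAIR1, and LOC_Os02g37830, LOC_Os02g37880, LOC_Os02g37920 and LOC_Os02g37930 in the OSD1 window. At none of the 36 loci were the 5 libraries all above the others, which held for 0.472% of all tested loci. LOC_Os05g50370 had 1.21 to 3.14 FPKM in the 5 libraries and 4.14 to 6.63 FPKM in the other 7, and LOC_Os02g37880 2.69 to 5.93 FPKM and 6.92 to 10.9 FPKM. The gap was narrower at LOC_Os02g37830, with 2.49 to 6.17 FPKM in the 5 and 6.62 to 9.38 FPKM in the 7, and at LOC_Os02g37920, with 1.45 to 2.94 FPKM in the 5 and 2.95 to 4.33 FPKM in the 7.

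LOC_Os05g50340, the most abundant locus of the 80, was lower in every Fix library than in both CY84 libraries, without passing the test. Its levels were 357.5 and 299.1 FPKM in Fix T0, then 273.2 and 252.3 FPKM in Fix T1, 185.4 and 153.5 FPKM in Fix T2, 127.7 and 255.2 FPKM in Fix T3, 147.5 and 242.1 FPKM in Fix T4, and 511.4 and 375.5 FPKM in CY84. Fix T2, Fix T3 and Fix T4 overlapped one another, Fix T1 lay above Fix T2 and Fix T4 and overlapped Fix T3, and Fix T0 stood between these generations and CY84. The mean was 229.3 ± 74.0 FPKM in Fix (SD, n = 10) and 443.5 ± 96.1 FPKM in CY84 (SD, n = 2), a log2(FPKM + 1) difference of -1.0 (SE 0.26, limma adjusted p = 0.128). Between Fix T0 and CY84, both kept by their roots, the difference was -0.42 (SE 0.34) and did not pass. All 8 libraries of Fix T1 to Fix T4 also lay below both Fix T0 libraries (-0.73 in log2(FPKM + 1), SE 0.27, limma adjusted p = 0.501). The difference between Fix and CY84 passed in 2 of 19 alternatives, with library weights (limma adjusted p = 0.0106) and without Fix T3 replicate 2 (0.0492), and the range over the 19 was 0.0106 to 0.864.

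Other loci of the REC8 window gave no call. LOC_Os05g50420, the first locus after REC8, had 4.42 and 4.44 FPKM in Fix T0, 1.78 to 6.72 FPKM in Fix T1 to Fix T4, and 5.94 and 6.15 FPKM in CY84. LOC_Os05g50480 had 5.84 to 22.9 FPKM in Fix, with a median of 17.1 FPKM, and 19.6 and 22.3 FPKM in CY84. Neither passed in any of the 5 comparisons.

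In the OSD1 window no locus passed in any comparison. OSD1 itself is flanked by LOC_Os02g37840, at 0 in all 12 libraries, and LOC_Os02g37856, which had 2.87 and 2.57 FPKM in Fix T0, 1.43 to 3.35 FPKM in Fix T1 to Fix T4, and 3.31 and 2.48 FPKM in CY84. LOC_Os02g37834, the nearest tested locus on the other side, stood at 3.25 and 3.41 FPKM in Fix T0, at 1.37 to 5.34 FPKM in Fix T1 to Fix T4, and at 3.66 and 3.46 FPKM in CY84. Both of these neighbours were above 1 FPKM in all 12 libraries, while OSD1 was at 0 in 11 of them.

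LOC_Os02g37862, 12 locus numbers from OSD1, was the most abundant locus of its window. It had 153.3 and 154.0 FPKM in Fix T0, then 115.1 and 140.3 FPKM in Fix T1, 189.4 and 182.8 FPKM in Fix T2, 164.1 and 173.4 FPKM in Fix T3, 220.1 and 153.3 FPKM in Fix T4, and 96.8 and 130.6 FPKM in CY84. Fix T0 and Fix T2 to Fix T4 lay above both CY84 libraries, and Fix T1 overlapped them. The mean was 164.6 ± 28.9 FPKM in Fix (SD, n = 10) and 113.7 ± 23.9 FPKM in CY84 (SD, n = 2), a log2(FPKM + 1) difference of 0.53 (SE 0.19, limma adjusted p = 0.286). Its neighbour LOC_Os02g37870 stood at 14.8 to 21.9 FPKM in Fix and 15.2 and 16.1 FPKM in CY84.

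LOC_Os02g37930 came nearest to passing the F test in the OSD1 window (limma adjusted p = 0.0665). It had 22.8 and 25.0 FPKM in Fix T0, then 15.8 and 28.8 FPKM in Fix T1, 8.82 and 12 FPKM in Fix T2, 7.42 and 13.3 FPKM in Fix T3, 32.3 and 30.8 FPKM in Fix T4, and 20.5 and 19.8 FPKM in CY84. Both Fix T4 libraries were above all others, and Fix T2 and Fix T3 were below them. It is one of the loci that followed the split of libraries by size factor, and after rescaling its limma adjusted p was 0.188. The F test passed in 4 of 18 alternatives, those with library weights, without the 4 libraries of Fix T1 and Fix T2, and without either one of the Fix T1 libraries, with adjusted p-values of 0.0149 to 0.204 over the 18.

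The PAIR1 window held no passing locus either. LOC_Os03g01570, its most abundant locus, had 21.6 and 24.2 FPKM in Fix T0, then 17.7 and 26.9 FPKM in Fix T1, 23.2 and 19.0 FPKM in Fix T2, 21.3 and 23.2 FPKM in Fix T3, 17.7 and 23.5 FPKM in Fix T4, and 15.4 and 17.1 FPKM in CY84. All 10 Fix libraries lay above both CY84 libraries, with a mean of 21.8 ± 3.00 FPKM in Fix (SD, n = 10) and 16.2 ± 1.21 FPKM in CY84 (SD, n = 2). The log2(FPKM + 1) difference was 0.40 (SE 0.20, limma adjusted p = 0.423) and did not pass in any of 19 alternatives.

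LOC_Os03g01490, at the edge of the PAIR1 window, had 11.95 and 12.2 FPKM in Fix T0, 11.7 to 22.6 FPKM in Fix T1 to Fix T4, and 18.0 FPKM in both CY84 libraries. Fix T0 was below CY84, with -0.54 as the difference in log2(FPKM + 1) and a standard error of 0.28, and did not pass (limma adjusted p = 1.0). LOC_Os03g01580, the locus directly before PAIR1, had 2.30 and 1.82 FPKM in Fix T0, then 0.889 and 2.29 FPKM in Fix T1, 0.712 and 0.414 FPKM in Fix T2, 0.943 and 0.478 FPKM in Fix T3, 3.26 FPKM in both Fix T4 libraries, and 2.24 and 1.68 FPKM in CY84. It was high in Fix T4 and low in Fix T2 and Fix T3, and its F test did not pass (limma adjusted p = 0.110). The test passed in 3 of 18 alternatives, without the 4 libraries of Fix T1 and Fix T2 (limma adjusted p = 0.0345), with the first Fix T1 replicate left out (0.0308) and with the other Fix T1 replicate left out (0.0260), and the range over the 18 was 0.0260 to 0.278. In these 3 settings 14.9%, 10.3% and 13.1% of all tested genes passed the F test.

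On the far side of PAIR1 the nearest tested locus was LOC_Os03g01660, which had 2.50 to 4.26 FPKM in Fix and 4.17 and 3.41 FPKM in CY84. LOC_Os03g01600, directly after PAIR1, was above 0 in CY84 replicate 1 alone, at 0.130 FPKM. LOC_Os03g01610 and LOC_Os03g01650 were above 0 in the same 3 libraries, one of Fix T1 and both of Fix T2, with values that differed by at most 0.163%, from 0.0501 to 0.373 FPKM. Reads of near-identical copies may be counted to both, so these 2 loci are uncertain. LOC_Os03g01614, which lies between them, was above 0 in the same 3 libraries but at other values. It had 1.16 FPKM in Fix T1 replicate 1 and 0.213 and 0.182 FPKM in Fix T2. LOC_Os03g01540, a further locus of moderate level, had 2.63 to 7.38 FPKM in Fix and 7.60 and 3.89 FPKM in CY84.

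In the MTL window 1 neighbour was expressed. LOC_Os03g27590, the listed locus directly before MTL, had 6.53 and 7.27 FPKM in Fix T0, then 4.76 and 9.04 FPKM in Fix T1, 6.60 and 2.00 FPKM in Fix T2, 11.9 and 8.06 FPKM in Fix T3, 11.2 and 13.7 FPKM in Fix T4, and 7.56 and 5.48 FPKM in CY84. Both Fix T4 libraries were above both Fix T0 libraries, and the mean level was 12.4 ± 1.76 FPKM (SD, n = 2) in Fix T4, against 6.90 ± 0.521 FPKM (SD, n = 2) in Fix T0. The log2(FPKM + 1) difference was 0.76 (SE 0.42, limma adjusted p = 0.789), and no difference among the groups passed (limma F test, adjusted p = 0.23). LOC_Os03g27630, directly after MTL, was above 0 in CY84 replicate 1 alone, at 0.737 FPKM.

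**Figure D3:**
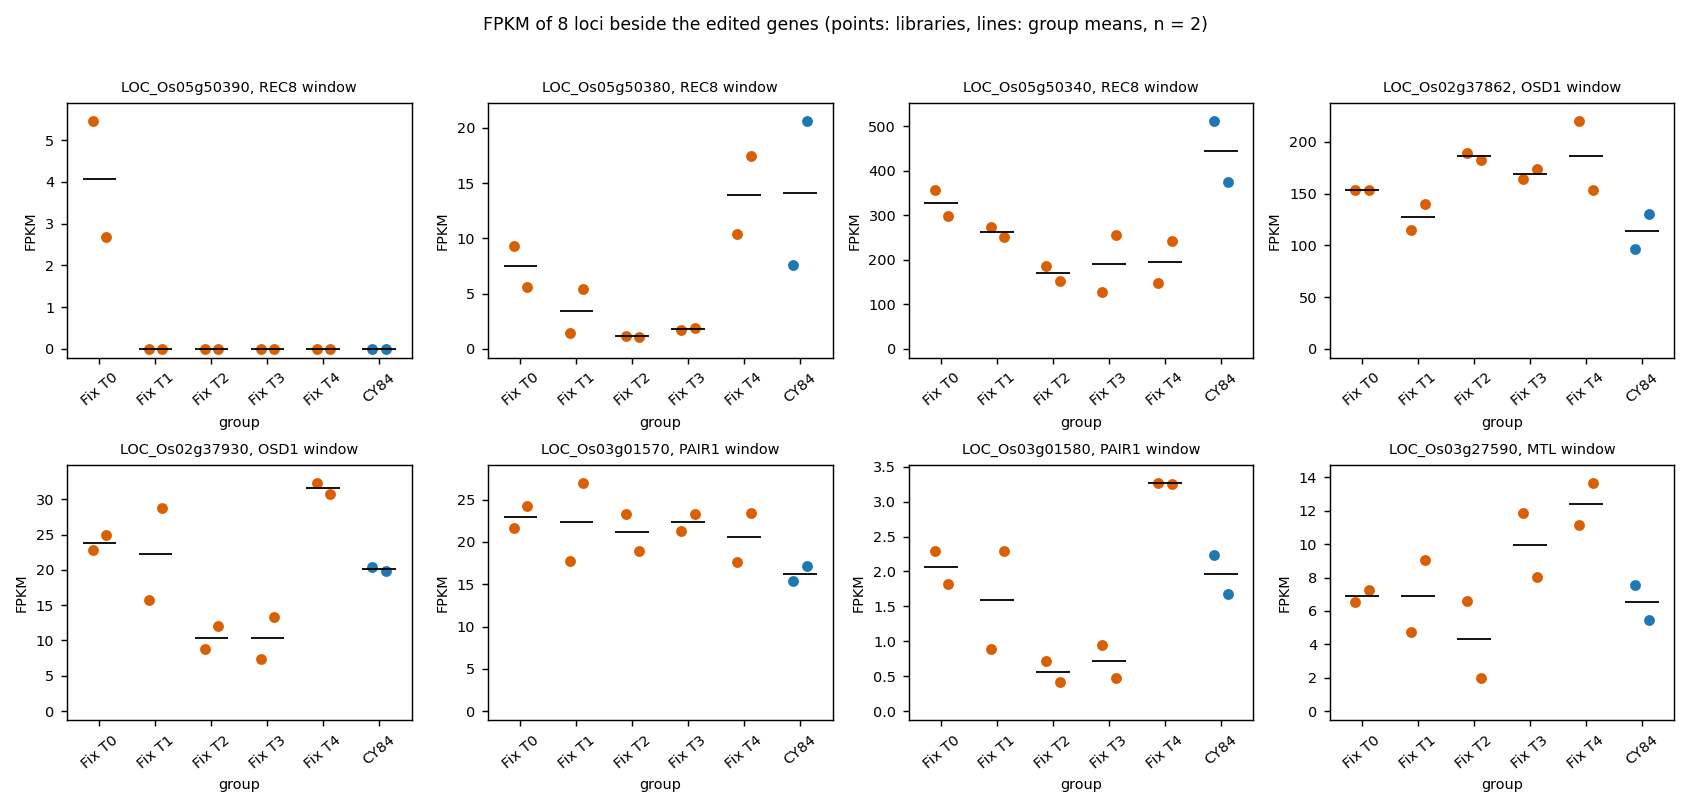
FPKM (y axis, a separate scale for each locus) of 8 loci beside the edited genes in the 5 Fix groups and CY84 (x axis). Points are libraries and lines are group means of 2 libraries. LOC_Os05g50390 is above 0 in Fix T0 alone, LOC_Os05g50340 is lower in all 10 Fix libraries than in CY84, and LOC_Os05g50380, LOC_Os02g37930 and LOC_Os03g01580 are low in both libraries of Fix T2 and Fix T3.

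Over the 5 comparisons, the loci that passed were LOC_Os05g50390 and LOC_Os05g50380. LOC_Os05g50390 entered the test only through the 2 Fix T0 libraries that set it apart, so every count that includes it rests on those libraries. In Fix T0 against CY84, 1 of the 36 tested loci passed, and it was higher. Of all tested genes 0.0901% passed, 0.0583% higher. The 2 Fix T0 libraries did not overlap the 2 CY84 libraries at 16 of 36 loci (44.4%), 9 higher and 7 lower, and at 44.6% of all tested genes, 18.0% higher and 26.6% lower. The median log2(FPKM + 1) difference was -0.21 over the 15 tested loci of the REC8 window, 0.05 over 7 of the PAIR1 window and -0.04 over 13 of the OSD1 window, beside -0.05 over all tested genes.

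For the mean of the Fix groups against CY84, 0 of 36 loci passed with limma, and 0.747% of all tested genes did. At an unadjusted p under 0.05 there were 4, LOC_Os05g50340, LOC_Os05g50370 and LOC_Os05g50380 lower and LOC_Os02g37862 higher, which is 11.1% beside 13.1% of all tested genes, 7.78% lower and 5.35% higher. With library weights these 4 loci passed (11.1%), as did 10.9% of all tested genes. The 10 Fix libraries did not overlap CY84 at 2 of 36 loci (5.56%), LOC_Os05g50340 lower and LOC_Os03g01570 higher, and at 7.44% of all tested genes, 4.71% lower and 2.73% higher. Median differences were -0.35 in the REC8 window, -0.17 in the PAIR1 window and -0.20 in the OSD1 window, beside -0.13 over all tested genes. Over the 36 loci the median was -0.18, and after rescaling by size factors it was -0.06 beside -0.001 over all tested genes.

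Against Fix T0, the seed-grown generations Fix T1 to Fix T4 differed at 1 of 36 loci, LOC_Os05g50390, which was lower, beside 0.207% of all tested genes, 0.0636% lower. At an unadjusted p under 0.05 there were 4 loci (11.1%), LOC_Os05g50340, LOC_Os05g50380, LOC_Os05g50390 and LOC_Os02g37880, all lower, beside 8.64% of all tested genes. Those lower made up 4.8% of all tested genes. Of the 36 loci 28 had a log2 difference below 0 (77.8%), as did 62% of all tested genes. The median difference was -0.18 over the 36 loci, beside -0.10 over all tested genes. After rescaling by size factors 26 loci were below 0, and the medians were -0.08 and 0.004. The seed-grown libraries did not overlap Fix T0 at 2 loci (5.56%), LOC_Os05g50340 and LOC_Os05g50390, both lower, and at 3.87% of all tested genes, 2.11% lower.

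In Fix T4 against Fix T0, LOC_Os05g50390 was again the 1 locus of 36 to pass, and was lower, beside 1.05% of all tested genes, 0.0742% lower. Libraries did not overlap at 13 of 36 loci (36.1%), 10 higher and 3 lower, and at 45.3% of all tested genes, 35.9% higher and 9.41% lower. The median difference over the 36 loci was 0.08, beside 0.16 over all tested genes, and after rescaling by size factors it was -0.03 beside -0.01. For any difference among the 6 groups, 2 of 36 loci passed (5.56%), both in the REC8 window, beside 1.91% of all tested genes. At an unadjusted p under 0.05 there were 8 (22.2%) beside 23.2%. Of the 2 that passed, LOC_Os05g50390 was admitted to the test by Fix T0 alone. The other, LOC_Os05g50380, kept its call in 9 of 18 alternatives. It lost it, among others, when low values were not filtered (limma F test, adjusted p = 0.129), where 0.612% of the genes then tested passed. No trait of the REC8 window is read from this count of 2.

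**Figure D4:**
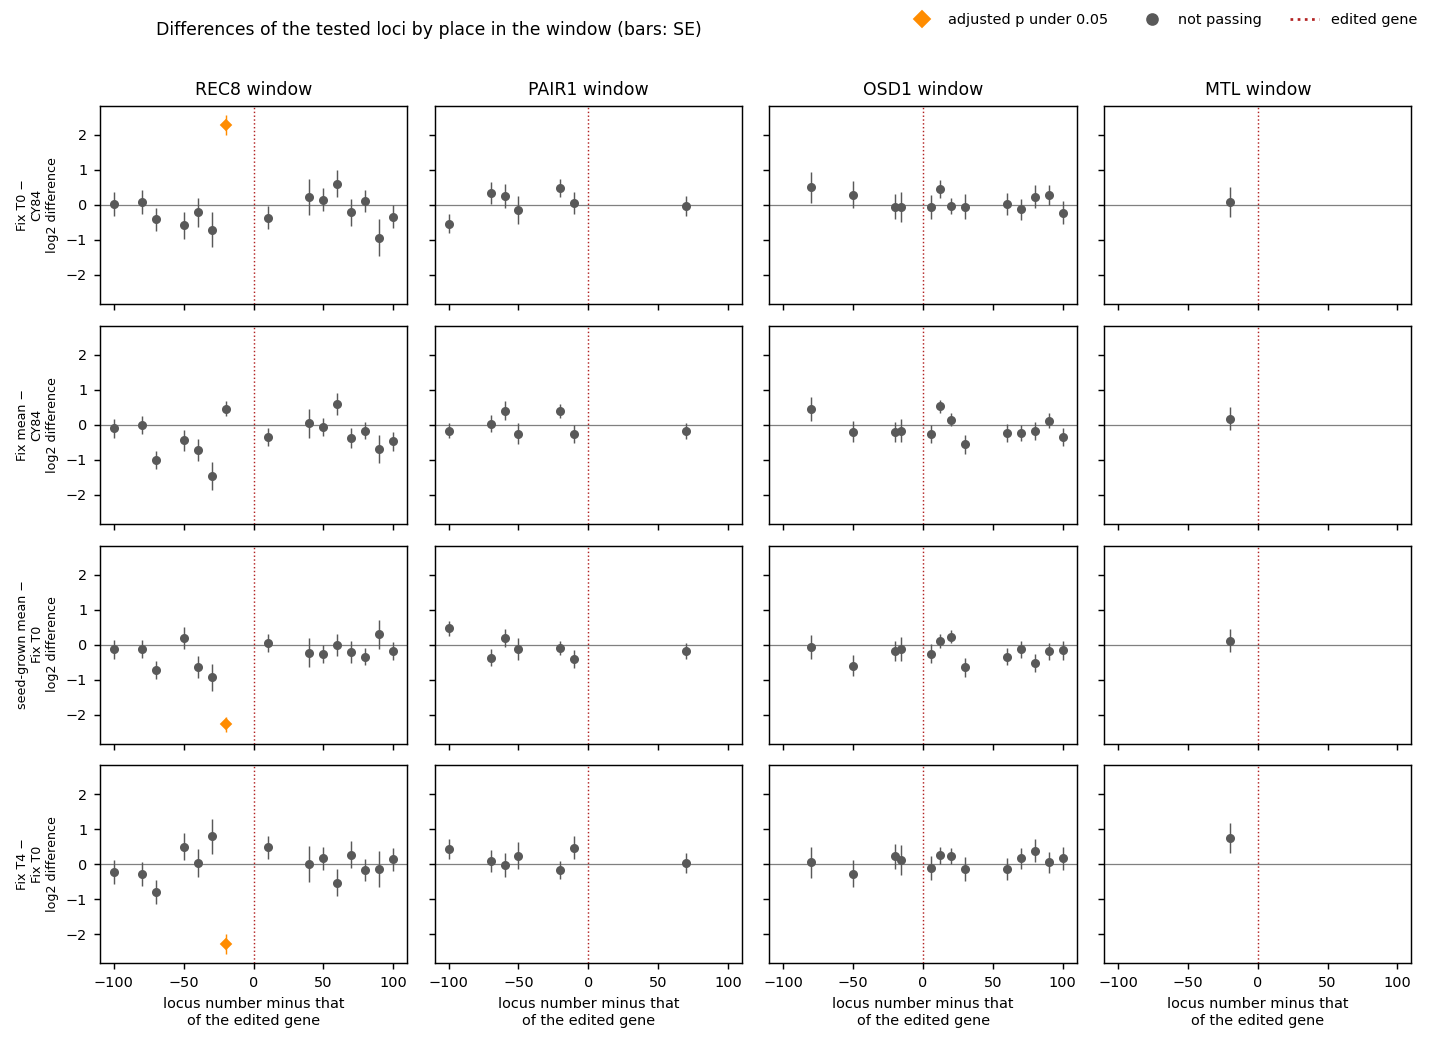
Difference in log2(FPKM + 1) (y axis, bars show the SE) of the 36 tested loci against their place in the window (x axis, locus number minus that of the edited gene), for 4 comparisons down the page and the 4 windows across. Orange diamonds passed with an adjusted p under 0.05. The only passing locus is LOC_Os05g50390, 20 locus numbers before REC8, above 0 in Fix T0 against CY84 and below 0 in the 2 comparisons with Fix T0.

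Other genes of meiosis and clonal seed were also scarce in these leaves. Of 12 listed genes, 8 stayed under 1 FPKM in every library. COM1 and the embryo-inducing gene BBM1, 2 of these, were at 0 in all. The recombination genes PAIR2, SPO11-1 and HEI10 were not among the 8, and each was above 1 FPKM in at least 1 library. The 12 summed to 3.82 to 8.89 FPKM in the Fix libraries and 6.11 to 7.71 FPKM in CY84. The highest was DMC1B, a recombinase gene, at 1.76 to 3.95 FPKM. Mean levels of HEI10 were 0.893 FPKM in Fix and 2.27 FPKM in CY84, and those of DMC1B were 2.79 and 2.07 FPKM. Of the 12, 3 reached the minimum for testing and 0 passed in any of the 5 comparisons, each of which used limma.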

How the data were processed

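The authors deposited 1 table of FPKM with a column for each of the 12 flag leaf libraries, per the file headers. Per the submitters' processing notes, the tools included HISAT2 2.1.0 and Trimmomatic 0.39, with FastQC and fastp. The same notes list featureCounts 1.6.4 and StringTie 1.3.4d, and also Bismark 0.23.0 and DESeq2 1.30.1. The role of each, the genome build and strand use in counting are not given in the sources used here. The table's 20 columns without a sample name were left aside, and the 12 bisulfite samples of the series are not analysed here.

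Libraries were matched to groups by title. Loci that reached 1 FPKM in 2 or more of the libraries entered the tests as log2(FPKM + 1), a scale that understates changes of low loci. The fit, made in R 4.3.3 with the package limma 3.58.1, had 1 coefficient for each group, 6 residual degrees of freedom and a trended prior, run over all 18871 tested genes. The threshold was 0.05 on the p adjusted by Benjamini and Hochberg's method over all tested genes. The code was tested on simulated data. The mode of the ratios between libraries at weakly expressed loci gave their relative depth. Tables were made with Python 3.11.15 and pandas 2.3.3.

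Windows came from locus numbers. Named were the edited genes, loci that passed, the 3 most abundant per window, the non-overlapping locus with the largest difference and the one with the largest F statistic per window, and the nearest neighbours of each edited gene in order of locus number; other loci were named after their values were seen. Members and lists were chosen with earlier results of these data known. Names of leaf, anther and meiosis genes and of the edited genes were paired with identifiers by hand or from earlier work, which limits them. Settings changed one at a time were a pseudocount of 0.1 FPKM, low values kept, median-of-ratios rescaling, a replicate block, library weights, the compared groups alone, no Fix T1 and Fix T2 libraries, and each library left out.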

Additional observations from a re-analysis of the deposited data

Results flagged for a closer look

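LOC_Os05g50390, 20 locus numbers before REC8, stood at 5.45 FPKM in Fix T0 replicate 1, apart from the other 9 Fix libraries. The next highest was Fix T0 replicate 2 at 2.68 FPKM, and the other 8 were at 0, so the gap was 0.509 of the range, above Dixon's critical value for 10 values. It was the 1 locus so marked of 17 named loci examined over the 10 Fix libraries. Chance marks about 1 in 20 groups of values drawn from a single population. That rate does not hold here, since the libraries come from different generations and 8 of the values are 0. The gap lies between the 2 Fix T0 libraries, and the 8 zeros of the other generations fix the range. It therefore restates that the 2 Fix T0 replicates differed in level and says nothing further about either library.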

How the results depend on the processing

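The number of tested loci that passed depended on the processing in 4 of the 5 comparisons. With a pseudocount of 0.1 FPKM, 0 loci passed in Fix T0 against CY84 and in Fix T4 against Fix T0. Of all tested genes 0.0795% and 0.382% did, beside 0.0901% and 1.05% with 1 FPKM. In the F test among the 6 groups that pseudocount left 1 locus, LOC_Os05g50380, and 1.18% of all tested genes, beside 1.91%. With no filter on low values 1 passed in the F test, LOC_Os05g50390, beside 0.612% of the genes then tested. With the compared groups alone 0 passed in Fix T0 against CY84, beside 0.0636% of all tested genes. Library weights gave 4 of 36 loci (11.1%) in the Fix mean against CY84, beside 10.9% of all tested genes, and 4 in the F test, beside 9.19%. Without the 4 libraries of Fix T1 and Fix T2 the F test gave 4, beside 14.9% of all tested genes. Leaving out 1 library at a time gave 0 to 1 locus in Fix T0 against CY84, 0 to 1 in the Fix mean against CY84 (LOC_Os05g50380 without Fix T1 replicate 2, LOC_Os05g50340 without Fix T3 replicate 2) and 0 to 5 in the F test, with 0 without Fix T0 replicate 1 and 5 when either Fix T1 replicate 1 or Fix T1 replicate 2 was left out, where 10.3% and 13.1% of all tested genes passed. The cause of these changes was not tested. The Fix T1 to Fix T4 against Fix T0 count was 1 in all 19 alternatives, but that locus, LOC_Os05g50390, was admitted to the test by Fix T0 alone and is at 0 in the other 10 libraries, so this count is no sign of stability. Adding the replicate number as a block gave counts of 1 in Fix T0 against CY84, 0 in the Fix mean against CY84, 1 in Fix T1 to Fix T4 against Fix T0, 1 in Fix T4 against Fix T0 and 2 in the F test, as without the block. In the same order, 0.0795%, 0.678%, 0.17%, 0.811% and 1.17% of all tested genes passed with the block. Deviations of equally numbered libraries from their group means correlated by over 0.1 in 2 of 15 pairs of groups (r from -0.30 to 0.19). With 2 libraries in each group this cannot exclude that replicate numbers paired the samples or marked a shared batch. Of the values of named loci under alternatives, 76 passed as before and 178 did not pass as before. Another 9 passed where they had not, 17 no longer passed and 0 changed direction, which F test values do not have. Of the 76, 9 belong to LOC_Os05g50380 and the rest to LOC_Os05g50390. The latter was admitted to the test by Fix T0 alone, so this tally is no sign of stability. Leaving out libraries of groups outside a comparison was chosen after seeing the data. Each group has 2 libraries and absolute depth is unknown, which limits calls at loci of low FPKM.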
